A study of Mus musculus with 38 samples.

Results

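Sperm small RNAs were compared between 10 PRPR and 9 CTPR mice, 19 of the 38 mice sequenced, to ask what the diet of the dam left in the sperm of sons that all ate a low-protein diet as adults. PRPR mice were males whose dams received 8% protein from the finding of a vaginal plug until weaning, and CTPR mice were males whose dams stayed on the control diet with 20% protein over the same time. From weaning at 21 days both groups ate 8% protein until they were killed at 11 to 13 weeks of age, after an overnight fast. All were inbred C57BL6/J mice. The members of the comparison were taken by diet group alone, with no measured value used.

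Each of the 19 mice came from a different litter and each litter from a different female, so the P values measured the spread between litters. The diet of a dam and everything else that its litter shared cannot be told apart. As the study lists them, the control and low-protein diets also differed in fat, sugar, fibre and vitamins. An effect of protein cannot be told apart from these. Mouse 47I1 was counted as CTPR and its brother 47I2 as CTCT (control diet throughout), following the study's list of mice, whereas the sample labels gave them the other way round. In PRPR mouse 08G5 the deposited class totals fell short of its genome-matched reads by 20.0%, a gap that lies in the category of all other reads, and class results are given with and without this mouse. Genome-matched reads numbered 4596770 to 7316533 in CTPR mice (median 6821362) and 5551605 to 6858901 in PRPR mice (median 6184419). Counting error was therefore small for abundant RNAs, and a floor of 3 reads corresponded to between 0.41 and 0.65 RPM, the reads per 1000000 genome-matched reads. CTPR mice 02A8 and 09H5 stood apart from the other 7 mice of their group in having low levels of most miRNAs, and 57P1 in having high ones. Mouse 02A8 had the fewest genome-matched reads and the lowest share of clean reads matched to the genome, 41.9%, beside 46.2% in PRPR mouse 14A5. PRPR mice 14A5 and 51O3 were low as well for mir-148a, at 424.6 and 802.7 RPM, beside 168.6 in 02A8 and 1541 in 09H5.

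Mature sperm make almost no new RNA, and their small RNAs include fragments of tRNA, miRNAs, Piwi-interacting RNAs (piRNAs) and pieces of ribosomal, nuclear and nucleolar RNA. Fragments from the 5′ end of tRNA are the best known of these, because they are gained as sperm pass through the epididymis and because paternal diet has been linked to their levels in rodents. piRNAs guide Piwi proteins in the male germ line, where they silence transposons and are made in large amounts by spermatocytes. Small nucleolar RNAs (snoRNAs) guide the chemical modification of ribosomal and other RNA in the nucleolus.

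The deposited tables count miRNA hairpins and do not separate the arms. The mature sequences below, from RefSeq on GRCm38.p6, are those of the hairpins on which the miRNA results turn, with the seed (bases 2 to 8) in capitals. mir-148a was the most abundant of the hairpins named here, and its mature 3p arm lies at chr6:51269829-51269850 on the minus strand. miR-30a-5p lies at chr1:23272274-23272295 on the plus strand.
mmu-miR-148a-3p: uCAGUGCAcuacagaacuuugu
mmu-miR-30a-5p: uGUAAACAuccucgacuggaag
mmu-miR-30c-5p: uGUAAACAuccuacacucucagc
mmu-let-7g-5p: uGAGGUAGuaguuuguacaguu
mmu-let-7f-5p: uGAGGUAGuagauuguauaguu
mmu-miR-34a-5p: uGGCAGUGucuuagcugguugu
mmu-miR-34b-5p: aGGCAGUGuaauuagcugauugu
mmu-miR-200b-3p: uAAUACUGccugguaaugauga
mmu-miR-200c-3p: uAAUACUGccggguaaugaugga
mmu-miR-690: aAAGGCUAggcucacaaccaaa
mmu-miR-3535: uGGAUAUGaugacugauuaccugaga
The mir-30, let-7, mir-34 and mir-200 members shown share a seed within each family, so they can recognise the same targets, while miR-148a, miR-690 and miR-3535 have seeds of their own in this set. Of 19 mature names looked up, 17 were matched, and miR-30d-5p and miR-34c-5p were not.

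The RNA classes that lay furthest apart between the groups were snoRNA and piRNA. snoRNA made up 25.1% ± 9.32 (SD, n = 10) of genome-matched reads in PRPR mice and 16.03% ± 7.70 (SD, n = 9) in CTPR mice. piRNA made up 10.1% ± 4.24 and 16.4% ± 7.83, respectively. The difference was 9.03 percentage points for snoRNA (exact permutation test, two-sided, P = 0.0380) and -6.26 for piRNA (exact permutation test, two-sided, P = 0.0334). Over the 11 classes compared, neither passed adjustment, with an adjusted P = 0.209 for both in the exact test. Without mouse 08G5 the differences were 10.6 (exact P = 0.0155) and -6.19 (exact P = 0.0477).

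In PRPR mice snoRNA ranged from 10.6% to 34.2% with a median of 28.9%, and in CTPR mice from 7.48% to 34.3% with a median of 15.2%. The groups overlapped over most of this range. By cut-offs set after the values were seen, 7 of the 10 PRPR mice lay above 22% and 8 of the 9 CTPR mice below 19%. The exceptions were CTPR mouse 09H5 at 34.3%, and PRPR mice 08G5 at 10.6%, 40H3 at 12.5% and 46I3 at 14.9%. Some of the same mice stood out for piRNA, which ranged from 5.87% to 19.3% (median 9.02%) in PRPR mice and from 6.05% to 33.2% (median 16.5%) in CTPR mice. Mouse 09H5 held the lowest piRNA percentage of its group and 40H3 the highest of its own. Leaving out 09H5 alone moved the differences to -7.56 for piRNA and 11.3 for snoRNA, each with an adjusted P = 0.0465 by the exact test, the only setting tried in which a class passed. Leaving out CTPR mouse 57P1, with 33.2% piRNA and 7.48% snoRNA, moved them to -4.17 (exact P = 0.0743) and 7.96 (exact P = 0.0696).

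Percentages of one total are tied to each other, so the piRNA difference was also taken over the reads outside snoRNA. It was then -5.86 percentage points (exact permutation test, P = 0.0474, adjusted P = 0.473 over the classes left). Among the other classes, cellular tRNA made up 11.7% ± 4.32 in PRPR and 15.7% ± 6.04 in CTPR mice (difference -4.04, exact P = 0.110). Mitochondrial tRNA made up 5.07% ± 2.76 and 5.56% ± 2.05 (exact P = 0.663), and miRNA 3.38% ± 1.27 and 4.28% ± 2.28 (exact P = 0.299). Small nuclear RNA (snRNA), which serves splicing, made up 2.98% ± 2.52 and 1.89% ± 0.638 (exact P = 0.253), with PRPR mouse 51O3 alone at 9.22%. Ribosomal RNA differed by -0.0098 percentage points and mitochondrial ribosomal RNA by -0.058, both far within the spread between mice. Long intergenic RNA, unannotated reads and all other reads differed by -0.734, -0.742 and 3.12 points (exact P = 0.126, 0.251 and 0.314). Without mouse 08G5 cellular tRNA differed by -3.82 points, mitochondrial tRNA by -0.831, miRNA by -0.633, snRNA by 1.34, long intergenic RNA by -0.753 and unannotated reads by -0.645. Ribosomal RNA, mitochondrial ribosomal RNA and all other reads then differed by -0.049, -0.181 and 1.13 points, and the smallest exact P of these 9 classes was 0.126, for snRNA. Without 51O3 the snRNA difference was 0.399, and without CTPR mouse 02A8, which held 8.11% long intergenic RNA, that of long intergenic RNA was -0.243.

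**Figure D1:**
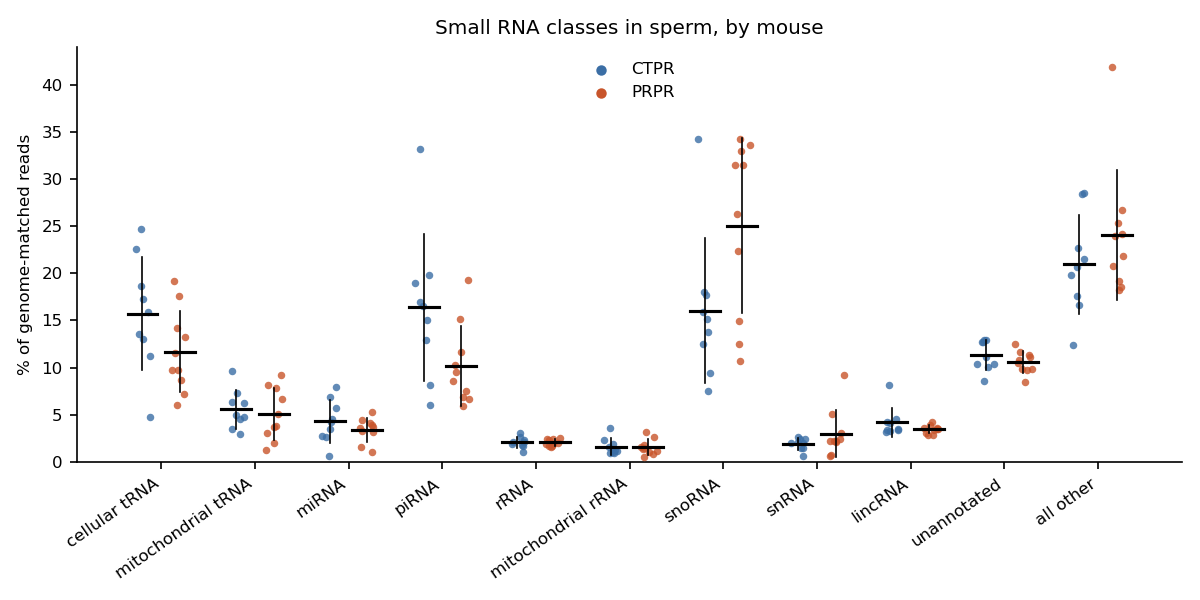
Percentage of genome-matched reads in each RNA class (y axis) by class and group, with 1 dot per mouse, the bar at the mean and the vertical line spanning 1 SD on each side. Mean snoRNA is 25.1% in PRPR and 16.03% in CTPR mice, and mean piRNA 10.1% and 16.4%. The groups overlap in both classes. snoRNA runs from 10.6% to 34.2% in PRPR and from 7.48% to 34.3% in CTPR mice. piRNA runs from 5.87% to 19.3% and from 6.05% to 33.2%.

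The miRNA class combines hairpins from 2 databases that gave different pictures. The miRBase total, which is built from annotated hairpins, was 1.39% ± 0.846 in PRPR and 2.38% ± 1.54 in CTPR mice (exact permutation P = 0.0903). The Ensembl total was 1.99% ± 0.816 and 1.90% ± 1.51 (exact permutation P = 0.880). The class difference of -0.898 percentage points thus lay in the miRBase part.

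Whether the effect of the dam's diet depended on the later diet was tested within litters, as the difference between a restricted and a control-fed brother, in 9 litters of restricted and 8 of control dams. For snoRNA this difference was -1.64 points in litters of restricted dams and -7.79 in litters of control dams, 6.16 apart (exact permutation P = 0.201). For piRNA it was 0.415 and 3.96 (exact permutation P = 0.213). The smallest P belonged to snRNA, at 1.13 and -1.04 (exact permutation P = 0.0131, adjusted P = 0.144 over the classes). Some of these litters held a mouse whose class totals differed from its genome-matched reads by over 1%, namely 08G5, PRCT mouse 31A3 (dam restricted, control diet later, 1.95% short) and CTCT mouse 35F2 (9.16% above). Without these litters, 7 against 7, the snRNA contrast was 1.30 and -0.052 (exact permutation P = 0.0478, adjusted P = 0.526), that of snoRNA was 4.75 apart (exact P = 0.376) and that of piRNA -2.96 (exact P = 0.416). No class passed adjustment in either set, so no dependence on the later diet was detectable at this number of litters.

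The members of the classes were then tested in a single fit of 4023 RNAs (3763 piRNAs, 190 miRNAs, 47 tRNA isoacceptors and 23 class totals) with edgeR. One member, a piRNA, passed an adjusted P of 0.05, which is 0.0249% of the members tested. At an unadjusted P under 0.05 by edgeR, 374 members (9.3%) were lower and 9 (0.224%) higher in PRPR mice. Scaled by genome-matched reads, 3502 members (87.0%) had a fitted level lower in PRPR mice, with a median log2 fold change of -0.59. This lean depends on the scaling: with TMM normalisation, which sets the bulk of members to no change, the median was -0.07 and 56.0% were fitted lower, with 70 lower and 60 higher at an unadjusted P under 0.05. DESeq2 gave 86 lower and 61 higher, with a median of -0.09. All fold changes below are scaled by genome-matched reads, so they carry this common shift, and the TMM value is given beside most of them.

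**Figure D2:**
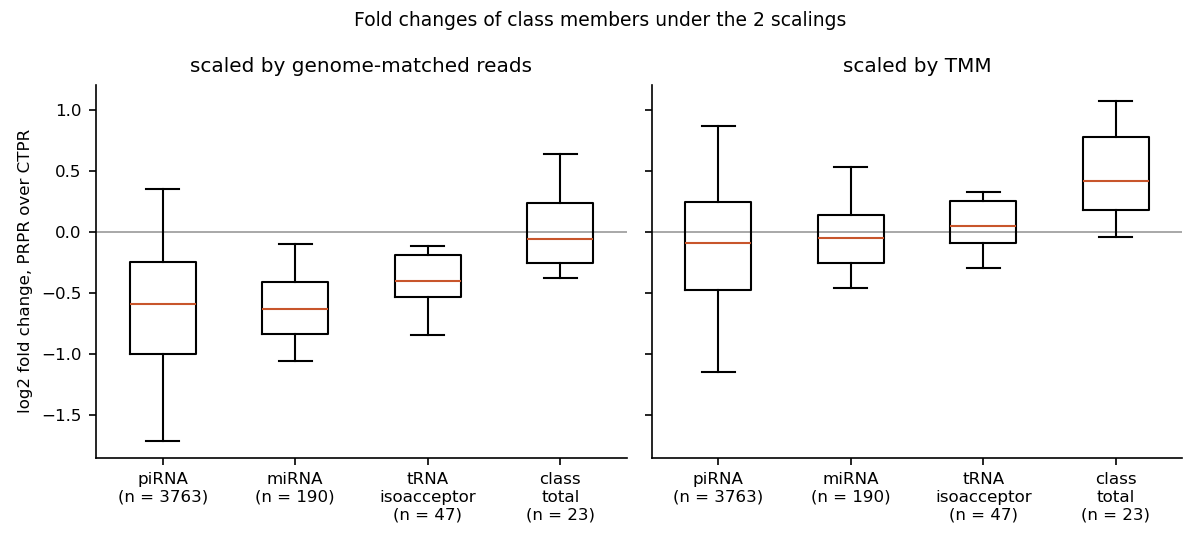
Log2 fold change of PRPR over CTPR (y axis) for the members of each kind, scaled by genome-matched reads (left) and by TMM (right), as boxes of the quartiles with the median and whiskers from the 5th to the 95th percentile. piRNAs, miRNAs and tRNA isoacceptors centre at -0.59, -0.63 and -0.40 on the left and close to 0 on the right.

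Without 1 mouse at a time the number lower at an unadjusted P under 0.05 ran from 185 (without CTPR mouse 57P1) to 755 (without PRPR mouse 40H3), and was 567 without CTPR mouse 09H5. In edgeR's older method it was 218. The number higher stayed between 7 and 12. These counts therefore rest on few mice, whereas the number past adjustment was 1 in every such fit.

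Among tRNA isoacceptors, 45 of 47 were fitted lower in PRPR mice, with a median of -0.40 on the log2 scale (18 of 47 fitted lower and a median of 0.05 with TMM). Of the 47, 4 (8.51%) were lower and 0 higher at an unadjusted P under 0.05 by edgeR, beside 9.3% and 0.224% of all members. With TMM, 0 were lower and 0 higher at that threshold. Adjustment was passed by 0 of the 47 (smallest adjusted P = 0.515, edgeR). tRNA-Gly-GCC, the source of a 5′ fragment often described in sperm, was the most abundant isoacceptor. It ranged from 28178 to 89852 RPM in PRPR mice (median 57079) and from 19145 to 160935 in CTPR mice (median 83358). 8 of 10 PRPR mice lay below the CTPR median, and CTPR mouse 09H5 held the lowest value of all. The log2 fold change of tRNA-Gly-GCC was -0.67 ± 0.28 (SE, edgeR, unadjusted P = 0.0261), against -0.16 with TMM. Its split from tRNA-Gly-CCC is uncertain, as given below.

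The other 3 isoacceptors at that level were far less abundant. tRNA-Ala-AGC averaged 36.0 RPM in PRPR and 64.7 in CTPR mice (-0.85 ± 0.38, edgeR unadjusted P = 0.0366). tRNA-Cys-GCA averaged 178.0 and 335.2 (-0.91 ± 0.41, edgeR unadjusted P = 0.0368). tRNA-Tyr-GTA averaged 27.5 and 49.2 (-0.84 ± 0.40, edgeR unadjusted P = 0.0499). In each of the 3 the groups overlapped, and with TMM their values were -0.35, -0.29 and -0.33. Each of these 4 isoacceptors, Gly-GCC included, was above an unadjusted P of 0.05 by edgeR with some single mouse left out, at a highest P of 0.0731 without 56I1 for Gly-GCC and, without 57P1, of 0.0790, 0.117 and 0.133 for the other 3.

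The other abundant isoacceptors lay closer together. tRNA-Glu-CTC averaged 20944 RPM in PRPR and 23697 in CTPR mice, a log2 fold change of -0.18 that was 0.19 with TMM. tRNA-Lys-CTT averaged 7121 and 8100 (-0.19, and 0.31 with TMM), tRNA-Val-CAC 6109 and 6961 (-0.19, and 0.23 with TMM) and tRNA-Glu-TTC 3104 and 3868 (-0.32, and 0.06 with TMM). How the reads of tRNA-Val and of tRNA-Gly were placed among their isoacceptors is uncertain, as given for the 5′ ends below. tRNA-Gly-CCC had the opposite sign, at 9818 ± 9687 RPM in PRPR and 6345 ± 3846 in CTPR mice (0.63 ± 0.56, edgeR unadjusted P = 0.272, and 0.83 with TMM). It varied most among mice, from 408.8 RPM in 31A6 to 31362 in 40H3, and without 40H3 its log2 fold change was 0.23. The 5′ end of tRNA-Gly-CCC, counted apart, was at -0.51.

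**Figure D3:**
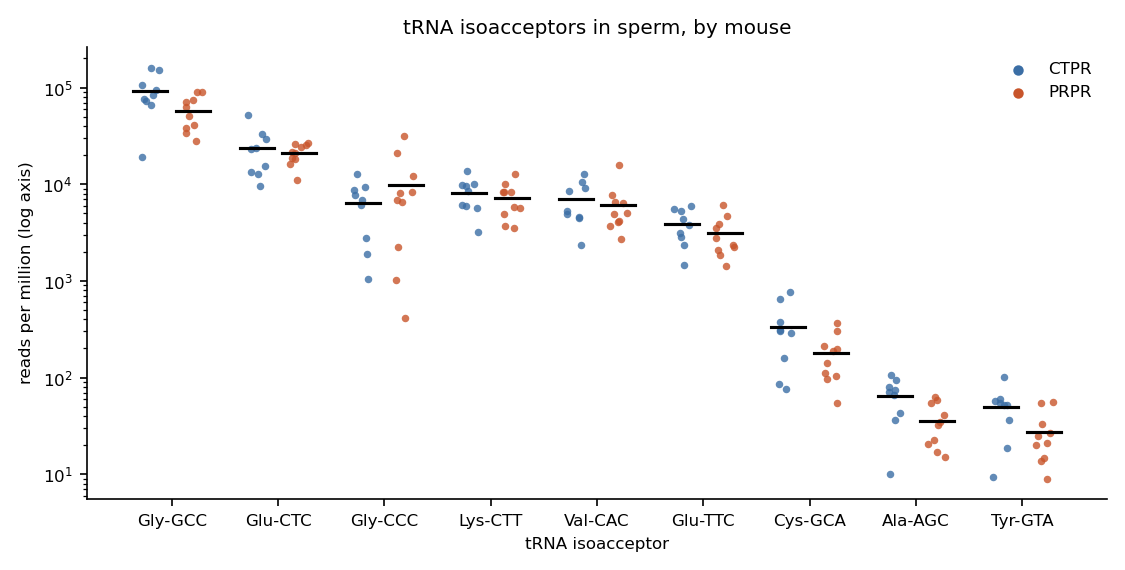
RPM (log axis) of 9 tRNA isoacceptors by mouse, with 1 dot per mouse and a bar at the group mean. tRNA-Gly-GCC is the highest in both groups, at means of 92160 (CTPR) and 57825 (PRPR), and the groups overlap for every isoacceptor shown.

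Summed over isoacceptors, tRNA-Gly gave 67807 ± 31271 RPM in PRPR and 98704 ± 44332 in CTPR mice. As a share of all cellular tRNA reads it was 56.4% ± 8.29 and 60.9% ± 9.33. tRNA-Glu held 22.3% ± 7.74 and 18.4% ± 8.40 of these reads. The make-up of the tRNA pool by amino acid therefore overlapped widely between the groups.

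Fragments were also counted by the end of the tRNA they came from. The 5′ end held 85.2% ± 2.09 of tRNA reads in PRPR and 83.4% ± 2.90 in CTPR mice (exact permutation P = 0.135). The 3′ end held 0.339% and 0.328%, the CCA end, the tail added when a tRNA matures, 0.310% and 0.371%, and reads at neither end 14.1% and 15.9% (exact permutation P = 0.739, 0.516 and 0.129). CCA-end reads that did not match the genome are left out, so these shares do not cover all CCA-end reads. Of 91 isoacceptor ends tested with edgeR, 0 passed adjustment (0.0%), while 4 (4.4%) were lower and 0 higher at an unadjusted P under 0.05, with a median of -0.33 over all ends (0.05 with TMM). DESeq2 also called 0. These 4 were the 5′ end of tRNA-Gly-ACC, which averaged 127.7 RPM in PRPR and 330.0 in CTPR mice (-1.38 ± 0.50, edgeR unadjusted P = 0.0102, adjusted P = 0.672, and -0.97 with TMM), and 3 ends under 30 RPM. These were tRNA-Tyr-GTA_5_end (-0.84, and -0.48 with TMM), tRNA-Gly-CCC_3_end (-0.83 and -0.45) and tRNA-Arg-ACG_CCA_end (-0.94 and -0.60). Without PRPR mouse 14A5, 1 end passed adjustment. The number lower at an unadjusted P under 0.05 was 17 without 40H3, 12 without 09H5, 9 without 02A8 or 46I3, 8 without 49K3 and 2 without 57P1 or 51O3.

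The abundant 5′ ends are those of tRNA-Gly, which together gave 60592 ± 26970 RPM in PRPR and 86666 ± 38325 in CTPR mice. The files place most of them under tRNA-Gly-CCC, whose 5′ end averaged 54730 and 77906 RPM (-0.51 ± 0.31, edgeR unadjusted P = 0.108, and -0.12 with TMM). The 5′ end of tRNA-Gly-GCC averaged 5647 and 8335 RPM (-0.56 ± 0.31, edgeR unadjusted P = 0.0833, and -0.11 with TMM). The isoacceptor totals put most tRNA-Gly reads under Gly-GCC instead, so the split between these 2 is uncertain and the sum over tRNA-Gly is the firmer value. For tRNA-Val, the 5′ ends averaged 6650 (PRPR) and 7825 RPM (CTPR) under Val-AAC but 1015 and 1203 under Val-CAC. The isoacceptor totals instead put 6109 and 6961 RPM under Val-CAC, of 9061 and 11155 for all tRNA-Val. The level of tRNA-Val-CAC is therefore uncertain as well.

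Among miRNAs, 181 of 190 hairpins were fitted lower in PRPR mice with a median log2 fold change of -0.63, beside -0.59 over all members. With TMM 109 were fitted lower and the median was -0.04. At an unadjusted P under 0.05 by edgeR, 5 (2.63%) were lower and 1 (0.526%) higher, beside 9.3% and 0.224% of all members. Adjustment was passed by 0 of the 190 (smallest adjusted P = 0.515, edgeR). DESeq2 also called 0 miRNAs.

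mir-148a, an abundant miRNA of many epithelial tissues that targets DNA methyltransferase transcripts, was the most abundant hairpin of the lists examined. It ranged from 424.6 to 6717 RPM in PRPR mice (median 2336) and from 168.6 to 13767 in CTPR mice (median 6323). 7 of the 9 CTPR mice held 5535 RPM or more, as did 1 of the 10 PRPR mice (40H3), and the other 2 CTPR mice were 02A8 and 09H5. The log2 fold change of mir-148a was -1.09 ± 0.51 (SE, edgeR, unadjusted P = 0.0424, adjusted P = 0.521), against -0.52 with TMM. Without 1 mouse at a time it lay between -1.32 and -0.85, with an unadjusted P of up to 0.112 by edgeR (without 57P1).

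mir-30a, of a family that shapes epithelial and germ cell differentiation, averaged 281.3 ± 185.0 RPM in PRPR and 622.0 ± 524.1 in CTPR mice (-1.14 ± 0.52, edgeR unadjusted P = 0.0390). In 4 CTPR mice it lay above every PRPR mouse, and 57P1 alone reached 1790 RPM. With TMM its value was -0.46, and without 57P1 it was -0.76 (edgeR unadjusted P = 0.149). All 6 mir-30 hairpins were fitted lower (4 of 6 with TMM), including mir-30d (-0.66, and -0.07 with TMM) and mir-30c-2 (-0.82, and -0.15 with TMM), and mir-30c-1 was at -0.33 (0.09 with TMM). These counts stand beside 181 of all 190 miRNAs fitted lower (109 with TMM). Only mir-30a of this family reached an unadjusted P under 0.05.

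The families known from spermatids and sperm had these values. mir-34c, which is abundant in sperm and made late in spermatogenesis, averaged 438.6 ± 350.6 RPM in PRPR and 707.3 ± 473.1 in CTPR mice (-0.69 ± 0.50, and -0.14 with TMM). Of the mir-34 and mir-449 hairpins, 4 of 4 tested were fitted lower, with a median of -0.66 (2 of 4 and 0.00 with TMM). mir-881, of the testis cluster on the X chromosome, averaged 338.2 and 572.8 RPM (-0.76 ± 0.42, and -0.24 with TMM), and 16 of 16 hairpins of that cluster were fitted lower with a median of -0.50 (10 of 16 and -0.04 with TMM). Over all miRNAs 181 of 190 were fitted lower, with a median of -0.63 (109 and -0.04 with TMM). For no hairpin of either list was an unadjusted P under 0.05 found.

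Of the let-7 family, regulators of cell growth, 12 of 12 were fitted lower with a median of -0.52 (6 of 12 and 0.01 with TMM), and let-7g averaged 454.8 and 726.8 RPM. Of mir-10, mir-99/100 and mir-125, 8 of 8 were fitted lower (median -0.57, and 0.00 with 4 of 8 lower with TMM), among them mir-10a at 484.8 and 711.2 RPM and mir-99a at 432.6 and 750.3 RPM (-0.79, and -0.18 with TMM). Of the proliferation-linked mir-17-92 and mir-106b-25 clusters, 7 of 7 were fitted lower (median -0.48, and 0.02 with 3 of 7 lower with TMM). The 6 tested hairpins of a set that earlier work linked to paternal stress had a median of -0.60 (0.02 with TMM), with mir-30a as the 1 member at an unadjusted P under 0.05. Each of these 4 medians is close to that of all members, -0.59.

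The lists furthest below the common median held abundant, epithelial and stromal miRNAs. Of 12 hairpins abundant in sperm or epididymis, 12 were fitted lower (10 with TMM), with a median of -0.85 (-0.27 with TMM). Beside mir-148a they included mir-21a, at 581.5 ± 437.3 RPM in PRPR and 1039 ± 878.6 in CTPR mice (-0.84 ± 0.55, and -0.16 with TMM), and mir-26a-2, at 162.2 ± 206.3 and 333.7 ± 225.4 (-1.04 ± 0.70, and -0.65 with TMM). Without 57P1 mir-21a was at -0.46, and without 40H3 mir-26a-2 was at -1.69. All 5 mir-200 family hairpins, which mark epithelium, were fitted lower in both scalings, with medians of -0.92 and -0.30 (TMM). Of all 190 miRNAs, 181 were fitted lower, and 109 with TMM. mir-200a averaged 176.2 ± 127.8 RPM in PRPR and 333.4 ± 250.1 in CTPR mice (-0.92 ± 0.53, edgeR unadjusted P = 0.0938), -0.30 with TMM and -0.60 without 57P1. The 3 hairpins of the mir-183 cluster, known from sensory epithelia, had a median of -0.86 (-0.27 with TMM). Apart from mir-148a, none of these reached an unadjusted P of 0.05 by edgeR.

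Markers of sperm and of other cells that such samples can hold had these levels. The summed level of 6 epididymal epithelial hairpins averaged 515.0 RPM in PRPR mice (99.1 to 1323) and 941.9 in CTPR mice (34.2 to 2279). That of 8 muscle and stromal hairpins averaged 1338 (249.7 to 3548) and 2815 (71.6 to 8576), and that of 8 listed germ cell hairpins 544.2 (140.0 to 1528) and 850.1 (98.8 to 1568). For the 6 stromal hairpins tested the median was -1.06 (-0.41 with TMM), for the 6 epithelial ones -0.95 (-0.32) and for the 7 germ cell ones -0.52 (-0.05). Red cell markers summed to 8.15 and 10.7 RPM and white cell markers to 19.2 and 28.1, while mir-122, the liver marker, was at 0.84 and 0.33 RPM. In bulk samples fewer cells of a type and less RNA per cell cannot be told apart, and the part of these cells in the miRNA values was not tested.

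**Figure D4:**
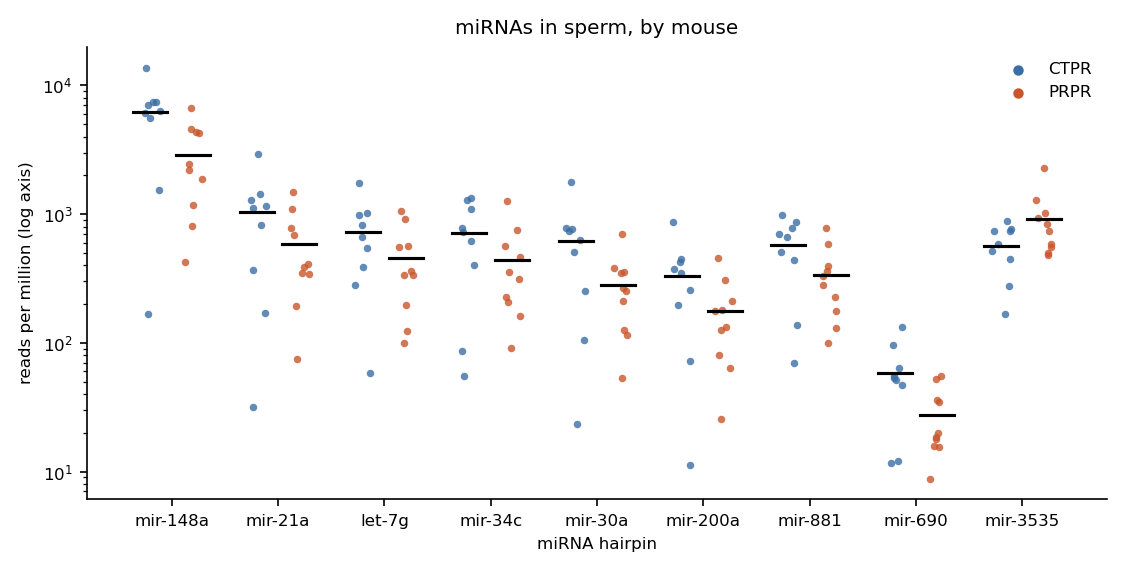
RPM (log axis) of 9 miRNA hairpins by mouse, with 1 dot per mouse and a bar at the group mean. Group means are lower in PRPR mice for 8 of the 9 hairpins, mir-148a having means of 2885 (PRPR) and 6161 (CTPR), and higher for mir-3535 (922 and 570).

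The remaining miRNAs at an unadjusted P under 0.05 were picked out after their values were seen. mir-690 averaged 27.4 RPM in PRPR and 58.1 in CTPR mice (-1.08 ± 0.43, edgeR unadjusted P = 0.0200), mir-3473e 1.46 and 5.43 (-1.88 ± 0.76, edgeR unadjusted P = 0.0200) and mir-6240 72.9 and 135.5 (-0.89 ± 0.41, edgeR unadjusted P = 0.0403). With TMM these were -0.49, -1.17 and -0.25 (edgeR unadjusted P = 0.0967, 0.129 and 0.323), none under 0.05. Without 57P1, mir-690 was at -0.83 (edgeR unadjusted P = 0.0655) and mir-6240 at -0.59 (edgeR unadjusted P = 0.152). The only one on the higher side, mir-3535, ranged from 484.3 to 2271 RPM in PRPR mice (median 788.0) and from 167.5 to 880.9 in CTPR mice (median 590.3). In 4 PRPR mice it lay above every CTPR mouse. Its log2 fold change was 0.69 ± 0.33 (SE, edgeR, unadjusted P = 0.0458, adjusted P = 0.521), or 1.23 with TMM, and it was 0.44 (unadjusted P = 0.160) without PRPR mouse 36K3.

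The position of mir-3535 sets it apart from the other miRNAs named. Its hairpin, at chr1:86351981-86352127 on the minus strand within Ncl, the gene of nucleolin, lies on the snoRNA gene Gm24148, at chr1:86352008-86352087. The mature sequence printed above starts at the first base of that snoRNA and contains AUGAUGA, letters like those of the box C near the 5′ end of box C/D snoRNAs. This motif, searched on the given strand only, is found in 3 of 1679 mature mouse miRNAs (0.179%). Of the 190 tested hairpins, 168 could be placed, and 5 lie on snoRNA genes: mir-3535 (0.69), mir-677 (0.43), mir-3068 (-0.11), mir-1291 (-0.14) and mir-5121 (-0.35). Their TMM values, in the same order, were 1.23, 1.08, 0.50, 0.42 and 0.48. Over all 190 hairpins the medians were -0.63 and, with TMM, -0.04. These 5 hairpins were looked up after the values were seen. Reads of such hairpins and of the snoRNA cannot be told apart in these counts.

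The snoRNA totals themselves were among the 9 members higher at an unadjusted P under 0.05. The Ensembl snoRNA total, which holds nearly all snoRNA reads, averaged 250549 RPM in PRPR and 160301 in CTPR mice (0.64 ± 0.25, edgeR unadjusted P = 0.0188, and 1.06 with TMM). The small Rfam snoRNA total averaged 63.6 ± 62.1 RPM in PRPR and 17.3 ± 8.29 in CTPR mice (1.88 ± 0.51, edgeR unadjusted P = 0.00126, adjusted P = 0.515, and 2.52 with TMM). In PRPR mice 14A5, 23F6 and 31A6 it reached 189.7, 134.6 and 124.2 RPM, whereas the highest CTPR value was 28.7, and 5 of 10 PRPR mice lay above it. Chosen after their values were seen, the processed-transcript total averaged 87300 and 57955 RPM (0.59 ± 0.28, edgeR unadjusted P = 0.0453, and 1.07 with TMM), and the antisense-transcript total 2296 and 3255 RPM (-0.50 ± 0.22, edgeR unadjusted P = 0.0311, and -0.06 with TMM).

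Of the 3763 piRNAs tested, 364 (9.67%) were lower and 5 (0.133%) higher in PRPR mice at an unadjusted P under 0.05 by edgeR. Over all members these shares were 9.3% and 0.224%, and with TMM 70 piRNAs were lower and 52 higher. Of the 3763, 3262 were fitted lower (2121 with TMM). The median was -0.59 (-0.08 with TMM). The number of distinct piRNA entries with at least 1 read ran from 22281 to 52348 per PRPR mouse (median 32975) and from 22308 to 78182 per CTPR mouse (median 50990). These numbers depend on the piRNA reads of each mouse, which were not made equal. CTPR mouse 02A8 had 262667 piRNA reads over 22308 entries, and 57P1 had 1619120 over 78182. A difference in diversity therefore cannot be told apart from the lower share of piRNA reads in PRPR mice. The 10 most abundant entries held 9.88% ± 1.98 of piRNA reads in PRPR and 10.3% ± 1.65 in CTPR mice.

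The member that passed adjustment was piR-mmu-14239525. It had reads in all 9 CTPR mice, from 5 to 84 with a median of 35, and 0 reads in all 10 PRPR mice. The groups did not overlap. Its level was 5.64 ± 3.99 RPM (SD, n = 9) in CTPR mice, and with 3 reads per library as the floor it was at least 11.6-fold lower in PRPR mice (edgeR, adjusted P = 0.0020). Of 637529 listed piRNAs, 224624 had no reads in any of the 19 mice. Only piR-mmu-14239525 had reads in every CTPR and in no PRPR mouse, and 0 showed the reverse. This count rests on the same reads as the fit and adds no separate evidence. The lowest CTPR counts were 5 reads in 02A8 and 6 in 09H5 (1.09 and 0.95 RPM). piR-mmu-14239525 passed in each of 27 alternative edgeR or DESeq2 fits that tested it, at an adjusted P of at most 0.0068. These fits share mice and reads, so they are not separate evidence either. The entry only just met the filter of at least 10 reads in at least 19 mice of the whole series. No PRPR mouse was among those that reached 10 reads. The unfiltered fit, which does not use that filter, was among the 27.

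Among control-fed mice, piR-mmu-14239525 had reads in 8 of 9 PRCT mice (dams restricted, sons on the control diet), with a median of 41 reads, and in 7 of 10 CTCT mice, with a median of 14.5. Mice of restricted dams therefore did have it when fed the control diet after weaning.

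**Figure D5:**
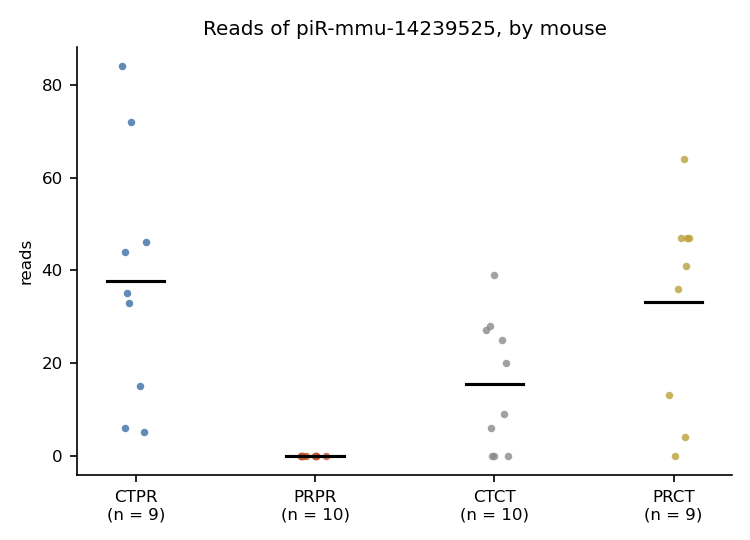
Reads of piR-mmu-14239525 (y axis) by mouse in the 4 diet groups, with 1 dot per mouse and a bar at the group mean. All 10 PRPR mice are at 0, whereas the 9 CTPR mice have 5 to 84 reads and the 2 control-fed groups include mice with and without reads.

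The entries next to it in the database's numbering did not share this pattern in full. piR-mmu-14239529 had reads in all 9 CTPR and all 10 PRPR mice, and piR-mmu-14239528 in 8 and 9. piR-mmu-14239527 had reads in 7 CTPR and 3 PRPR mice. piR-mmu-14239523 had 161 reads in 4 PRPR mice and 56 in 5 CTPR mice. Summed with its 9 neighbours, the level was 20.1 ± 14.8 RPM in PRPR and 36.6 ± 19.4 in CTPR mice, and without it 20.1 ± 14.8 and 31.0 ± 16.7. The groups overlapped in both sums. Whether these entries share sequence was not analysed here.

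The other piRNAs with the smallest unadjusted P values did not pass adjustment (adjusted P of 0.291 and above, edgeR). piR-mmu-51046046 averaged 7.95 ± 5.18 RPM in PRPR and 66.3 ± 93.1 in CTPR mice (-3.06 ± 0.67, and -2.21 with TMM), where mouse 56I1 alone reached 294.2 RPM. piR-mmu-6541322 ranged from 9.54 to 59.3 RPM in PRPR and from 16.8 to 349.9 in CTPR mice (-1.86 ± 0.48, and -1.15 with TMM), and 5 CTPR mice lay above every PRPR mouse. piR-mmu-19513337 averaged 0.859 and 11.2 RPM (-3.68 ± 0.97, and -2.86 with TMM) and piR-mmu-24726044 averaged 0.992 and 11.9 RPM (-3.57 ± 0.94, and -2.61 with TMM).

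On the higher side, piR-mmu-16510213 averaged 31.6 ± 35.6 RPM in PRPR and 8.91 ± 3.02 in CTPR mice (1.82 ± 0.51, edgeR unadjusted P = 0.00165, adjusted P = 0.515, and 2.60 with TMM). Its highest values were in 51O3 (105.6) and 36K3 (89.6), and 5 PRPR mice lay above the CTPR maximum of 13.6. DESeq2 placed it past the threshold (adjusted P = 0.0360), the 1 call of DESeq2 besides piR-mmu-14239525. piR-mmu-34496478 averaged 18.3 and 2.69 RPM (2.76 ± 1.06, and 3.67 with TMM), but 127.3 RPM in mouse 23F6 made up most of its PRPR mean, and without 23F6 its value was 1.20 (edgeR unadjusted P = 0.194). piR-mmu-34063312 averaged 4.02 and 0.400 RPM (3.25 ± 1.06, and 3.17 with TMM), and with the sample labels' grouping of litter 47I its value was 1.07.

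The most abundant piRNA entries followed the common shift. piR-mmu-3744158 averaged 1656 RPM in PRPR and 2777 in CTPR mice (-0.75 ± 0.48, and -0.05 with TMM). piR-mmu-2819708 averaged 1015 and 1370 (-0.43 ± 1.08, and 0.27 with TMM) and was at 0 in some mice of both groups, and piR-mmu-9033385 averaged 472.6 and 745.0 (-0.66 ± 0.44, and 0.20 with TMM). piR-mmu-6814978 averaged 313.9 ± 137.7 and 594.3 ± 347.7 (-0.92 ± 0.34, edgeR unadjusted P = 0.0124, and -0.37 with TMM), and piR-mmu-5619027 averaged 341.1 ± 144.8 and 558.9 ± 248.8 (-0.71 ± 0.29, edgeR unadjusted P = 0.0233, and -0.20 with TMM).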

How the data were processed

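Small RNA was extracted from sperm of 38 mice and sequenced by the authors, who mapped the reads to mm10, per the labels' processing notes, and to miRNA, piRNA, tRNA and rRNA databases with the SPORTS 1.0 pipeline. Database versions and mismatch settings are not given in the sources used here. The authors deposited raw read counts per class and member for each mouse, without normalisation or pooling, and only genome-matched counts were used here.

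Class totals were divided by genome-matched reads and compared with two-sided exact permutation tests (92378 splits of the 19 mice), adjusted by Benjamini-Hochberg. Members with at least 10 reads in at least 19 of the 38 mice entered the quasi-likelihood test of edgeR 4.0.16, run under R 4.3.3 (genome-matched reads as library size, no further scaling), with errors as SE, and adjusted over all members. DESeq2 1.42.0, TMM, other filters and other sets of mice were alternatives. The code was tested on simulated data. Reads of the CCA end in mouse 47I1 were summed over members, because the total given was larger than the mouse's tRNA reads allow.

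Named were every class, the 6 most abundant tRNA isoacceptors, the 3 most abundant hairpins of each miRNA list, the 5 most abundant piRNAs, the 5 members of smallest P in each direction and list or tRNA members with an unadjusted P under 0.05. Members and lists were chosen with earlier results of these data known. Reads carried no molecular identifiers, so floors cover counting error only. Sequences were taken from RefSeq (GRCm38.p6).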

Additional observations from a re-analysis of the deposited data

Results flagged for a closer look

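In 21 of 154 checks of a group of mice, 1 mouse lay far from the rest by Dixon's test at the 95% level. Chance gives about 5% of checks only if the values are normally distributed, which was not tested. The values were untransformed percentages and RPM, and each of the 21 was the highest of its group. Their number therefore cannot be set against that rate. Many of the checks share mice and reads, and no cause was tested.

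Among CTPR mice, 09H5 had 34.3% snoRNA (342838 RPM in the Ensembl snoRNA total), where the next mouse had 18.002%, and 02A8 had 8.11% long intergenic RNA, where the next had 4.56%. Mouse 57P1 was far above the others for mir-99a (1965 RPM), mir-30a (1790 RPM), mir-21a (2956 RPM) and mir-96 (76.8 RPM), and for piR-mmu-19513337 (44.0 RPM), piR-mmu-2819708 (5750 RPM) and piR-mmu-9033385 (2345 RPM). Mouse 56I1 was far above for piR-mmu-51046046 (294.2 RPM, where the next had 110.8).

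Among PRPR mice, 51O3 had 9.22% snRNA, where the next mouse had 5.10%. 08G5 had 41.97% of reads in the category of all other reads, which includes the reads missing from its class totals. Mouse 40H3 was far above the others for mir-93 (61.1 RPM), mir-30a (704.1 RPM), mir-96 (37.9 RPM), mir-741 (62.6 RPM) and mir-26a-2 (691.3 RPM). Mouse 46I3 was far above for tRNA-Val-CAC (15936 RPM), whose split from the other tRNA-Val isoacceptors is uncertain. So were 23F6 for piR-mmu-34496478 (127.3 RPM, where the next had 21.0) and 36K3 for mir-3535 (2271 RPM).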

How the results depend on the processing

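No paired analysis was possible because the 19 mice came from 19 different litters and their replicate numbers pair nothing. Most class differences, fold changes and call counts kept their direction and side of the threshold under other scalings, filters, groupings and sets of mice. Some class differences changed sign. Those of rRNA and mitochondrial rRNA were close to 0, whereas those of unannotated reads (-0.742) and miRNA (-0.898) were not. For rRNA the difference was 0.050 over the sum of class totals, 0.027 on the log2 scale, 0.298 outside snoRNA, 0.050 with litter 47I as the sample labels group it and 0.059 without that litter. For mitochondrial rRNA it was 0.0089 over the sum of class totals and 0.100 outside snoRNA, for unannotated reads 0.748 outside snoRNA and for miRNA 0.0955 in Ensembl alone. The within-litter rRNA contrast was 0.089 with the labels' grouping and 0.031 without litter 47I. Without the litters of mice with class totals off by over 1%, an alternative chosen after seeing the data, it was 0.086, and that of unannotated reads was -0.436.

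DESeq2 called 2 members, the unfiltered edgeR fit 544 (400 lower and 144 higher of 413591) and the filter of 10 reads in every mouse 0 of 433, since piR-mmu-14239525 is then not tested. At an unadjusted P under 0.05, 70 members were lower and 60 higher with TMM, 86 and 61 with DESeq2, 9480 and 3176 unfiltered, 73 and 4 with 10 reads in every mouse and 218 and 5 with edgeR's older method. Those past adjustment unfiltered included tRNA-Gly-GCC, tRNA-Gly-CCC (adjusted P = 0.0248), mir-148a (adjusted P = 9e-06) and the Ensembl snoRNA and processed-transcript totals. For tRNA ends, 1 was lower and 1 higher at an unadjusted P under 0.05 with TMM, 3 and 2 with DESeq2 and 5 and 3 unfiltered. The cause was not tested.

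Fold changes that turned positive were, with TMM and DESeq2 respectively, tRNA-Glu-CTC 0.19 and 0.20, tRNA-Lys-CTT 0.31 and 0.30, tRNA-Val-CAC 0.23 and 0.23, tRNA-Glu-TTC 0.062 and 0.056, mir-34b 0.18 and 0.17, mir-34a 0.14 and 0.10, mir-10a 0.093 and 0.070, mir-10b 0.025 and 0.00046, mir-25 0.22 and 0.21, mir-93 0.071 and 0.057, mir-871 0.067 and 0.050, mir-30c-1 0.095 and 0.079, piR-mmu-2819708 0.27 and 0.21, and piR-mmu-9033385 0.20 and 0.16. Leaving out 1 mouse at a time, tRNA-Glu-CTC ran from -0.28 to 0.057 (positive without 02A8) and piR-mmu-2819708 from -0.72 to 0.30 (positive without 57P1).

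With 1 mouse left out at a time, the class difference ran from -7.56 to -4.17 for piRNA and from 7.96 to 11.3 for snoRNA, both past adjustment only without 09H5, from -0.957 to 0.013 for mitochondrial tRNA, from -0.132 to 0.111 for rRNA and from -0.241 to 0.189 for mitochondrial rRNA. The 3′ end share ran from -0.0026 to 0.0247. Members lower at an unadjusted P under 0.05 ran from 185 to 755, and for tRNA ends from 2 to 17, with 0 to 1 end past adjustment. At 4596770 to 7316533 reads per mouse, RNAs under about 3 reads per library were below detection.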
